A study of Rattus norvegicus with 4 samples.

Results

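Cdc5l and 9 further components of the Prp19 complex and its direct spliceosomal partners were followed in ribosome footprint libraries of heart muscle cells. The 10 genes are Cdc5l, Prpf19, Plrg1, Bcas2, Crnkl1, Xab2, Syf2, Ctnnbl1, Snw1 and Prpf8. They were taken by an exact match of the gene symbol among the 22250 genes counted, and each symbol matched 1 gene. All 10 passed the filter on low counts, as did 11335 genes in all. The genes were selected on footprint counts, scaled to the library total, in the CPEB4 siRNA and Control siRNA libraries, which are the values described here. Their fold changes are therefore given as descriptions without p-values.

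The cells were ventricular cardiomyocytes of Wistar rats aged 1 to 2 days, isolated by trypsin digestion and a Percoll gradient. The libraries came from cells given CPEB4 siRNA for 72 h (2 libraries) and from cells given Control siRNA (2 libraries). The shared growth protocol also names the mTOR inhibitor Torin1 at 250 nM for 24 h without saying which cells received it. Whether these libraries include the inhibitor is therefore unknown. Footprints are the mRNA stretches that ribosomes shield from RNase I, here released from polysomes of a sucrose gradient and sequenced. Separate cultures are not stated for the replicates, so the spread between libraries may be technical.

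The Prp19 complex, named after the ubiquitin ligase PRPF19, joins the spliceosome as it is activated and stays through the catalytic steps that remove an intron. CDC5L is a core subunit with Myb-type DNA-binding repeats at its start, and it holds PRPF19, PLRG1 and BCAS2 together. These roles are known from human and yeast proteins. Every cell uses this machinery, and in heart muscle splicing also sets the isoforms of sarcomere proteins such as titin.

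Footprints counted in genes were 4889212 and 5910911 in CPEB4 siRNA replicates 1 and 2, against 3554011 to 5863879 in the Control siRNA libraries. The siRNA target Cpeb4, an RNA-binding regulator of poly(A) tails, had 40 and 59 counts in CPEB4 siRNA libraries, against 351 and 253 in Control siRNA libraries (edgeR log2 fold change -2.86 ± 0.17, SE; adjusted p = 1.57e-09). Of the 11335 genes, 386 had an edgeR adjusted p under 0.05 (3.41%), and 212 without Control siRNA replicate 1. Summed cardiomyocyte markers (8 genes, lowest Ryr2 and none at 0) lay between 54447 and 60789 CPM (each count divided by its library total, on a common scale) in the CPEB4 siRNA libraries, against 54629 and 58591 CPM in the Control siRNA libraries. Myh6 and Myh7 make up most of these sums.

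Cdc5l had the lowest fitted fold change of the 10 genes. It had 474 and 630 footprints in CPEB4 siRNA replicates 1 and 2, against 1202 and 835 in Control siRNA replicates 1 and 2. Scaled to the library total these were 96.9 and 107 CPM in CPEB4 siRNA cells, against 205 and 235 CPM in Control siRNA cells. Both CPEB4 siRNA libraries were low and the groups did not overlap. The group means were 102 ± 6.81 CPM in CPEB4 siRNA cells and 220.0 ± 21.2 CPM in Control siRNA cells (SD, n = 2 each). The fitted log2 fold change was -1.14 ± 0.11 (SE), a level 54.6% lower. In bulk footprints, fewer cells of a type, less mRNA per cell and fewer ribosomes per mRNA cannot be told apart.

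Cdc5l (ENSRNOG00000019975) lies on chromosome 9 in the RefSeq rat assembly GRCr8. The promoter window around its annotated start (250 bases before and 50 bases after, chr9:23062147-23062446, plus strand, RefSeq GRCr8) is printed because it carries a feature seen in no other promoter of the group. The palindrome TCTCGCGAGA, known in human and mouse as a recognition sequence of the transcription factor BANP, is in capitals.
Cdc5l promoter: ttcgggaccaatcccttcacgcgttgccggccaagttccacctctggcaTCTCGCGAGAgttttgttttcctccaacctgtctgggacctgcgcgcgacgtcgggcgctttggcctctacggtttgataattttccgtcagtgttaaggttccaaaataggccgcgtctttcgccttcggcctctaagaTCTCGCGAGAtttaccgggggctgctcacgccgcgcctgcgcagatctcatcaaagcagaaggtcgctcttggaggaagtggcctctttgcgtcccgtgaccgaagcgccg
The 2 copies begin 201 and 61 bases before the start. The motif is the longest palindrome of at least 10 bases found more than 1 time in this window, a rule set after the sequence was read, and it reads the same on both strands. Of 33469 RefSeq promoter windows of the same length, 125 hold the motif (0.373%) and 10 hold 2 or more copies (0.0299%). All 10 genes of the group matched a window, and 1 of the 10, Cdc5l, holds the motif. A repeated palindrome of any letters and at least 10 bases occurs in 252 windows (0.753%). A match of letters is a description and shows no binding.

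**Figure D1:**
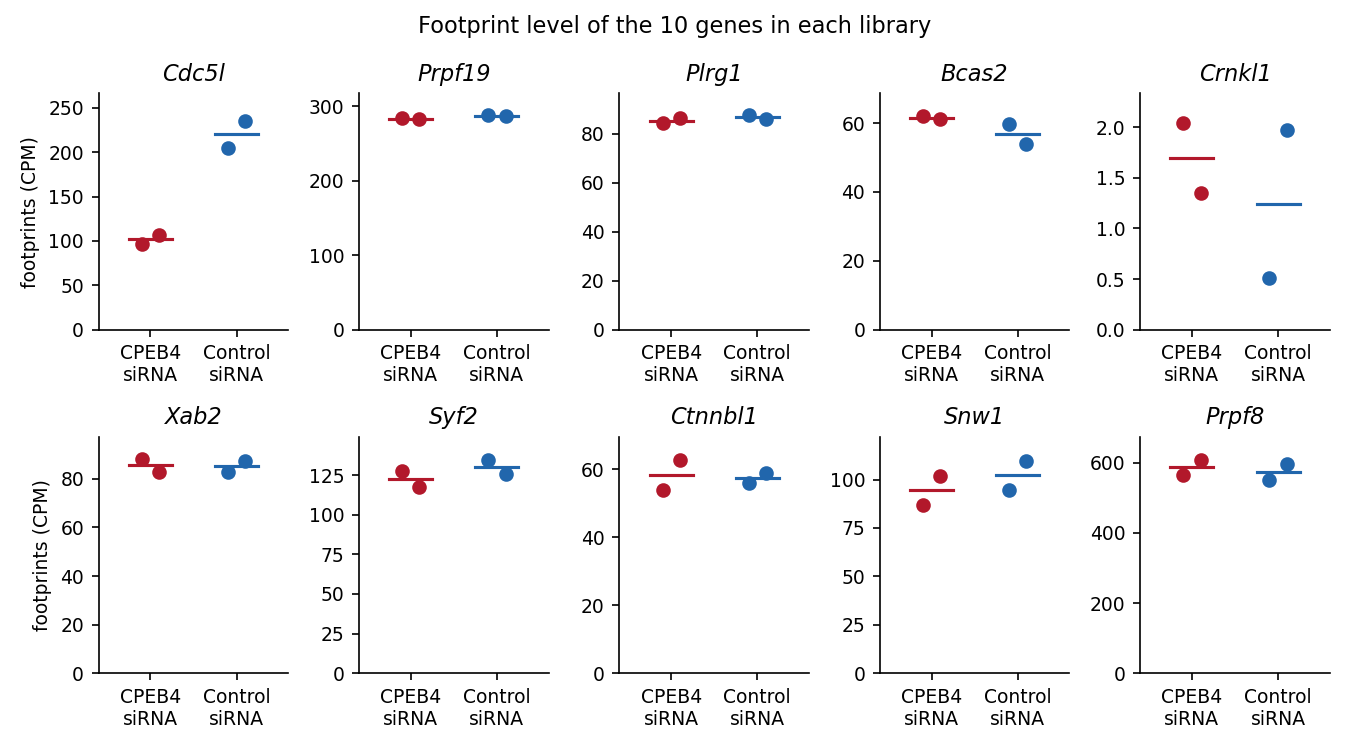
Footprint level (CPM, linear axes from 0) of each of the 10 genes, with 1 point per library and a line at the group mean, CPEB4 siRNA left and Control siRNA right. Cdc5l shows the clear separation (96.9 and 107 CPM against 205 and 235 CPM), while Prpf19 is nearly level at 283 to 288 CPM.

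For Cdc5l each CPEB4 siRNA library was below each Control siRNA library, as for 19.5% of all genes tested. The Cdc5l ratios below restate this lack of overlap in values that the selection used, and are a description. CPEB4 siRNA replicate 1 had 0.473 times the CPM of Control siRNA replicate 1 and 0.413 times that of Control siRNA replicate 2. CPEB4 siRNA replicate 2, whose reads were limited to 29 to 33 nt instead of 29 to 34 nt, had 0.520 and 0.454 times those levels. Replicates lay much closer together, with log2 gaps of 0.14 between the CPEB4 siRNA libraries and 0.20 between the Control siRNA libraries. By fitted log2 fold change Cdc5l ranked 65 from the lowest of 11335 genes, and 0.573% of genes were at or below it. Of 1133 genes with at least the 3141 counts that Cdc5l had over the 4 libraries, 3 had a fold change this low, namely Cdc5l, the tetraspanin Cd9 and the lectin Reg3b (named after their values were seen).

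The genes of the core partners that CDC5L binds had no footprint shift as large as that of Cdc5l. PRPF19 is the ubiquitin ligase and scaffold of the complex. Prpf19 had 284 and 283 CPM in CPEB4 siRNA libraries, against 288 and 287 CPM in Control siRNA libraries. The groups did not overlap, with very close replicates, and the ratio of the means was 0.985 (fitted log2 fold change -0.05 ± 0.10, SE). PLRG1 is a WD40-repeat protein that binds CDC5L directly. Plrg1 had 84.3 and 86.5 CPM in CPEB4 siRNA libraries, against 87.5 and 85.8 CPM in Control siRNA libraries, with overlapping groups (log2 fold change -0.05 ± 0.11, SE).

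BCAS2 is the small core subunit also called SPF27. Bcas2 had 62.0 and 61.2 CPM in CPEB4 siRNA libraries, against 59.9 and 54.0 CPM in Control siRNA libraries. It was slightly higher in both CPEB4 siRNA libraries, with a log2 fold change of 0.08 ± 0.13 (SE) that is smaller than its error. CTNNBL1 is an armadillo-repeat protein that binds the nuclear localisation signal of CDC5L. Ctnnbl1 had 53.8 and 62.8 CPM in CPEB4 siRNA libraries, against 55.9 and 58.8 CPM in Control siRNA libraries, and the Control siRNA values lay within the CPEB4 siRNA range (log2 fold change -0.00092 ± 0.13, SE). Cwc15, the remaining core subunit, was named after its values were seen. It had 38.5 and 41.1 CPM in CPEB4 siRNA libraries, against 33.3 and 34.9 CPM in Control siRNA libraries (log2 fold change 0.20 ± 0.14, SE). Cwc15 was thus higher in both CPEB4 siRNA libraries, as were 26.5% of all genes tested, and did not pass the edgeR test.

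The genes of the scaffold proteins built of helical repeats showed no shift like that of Cdc5l. XAB2 binds the intron and also acts in transcription-coupled DNA repair. Xab2 had 88.2 and 82.9 CPM in CPEB4 siRNA libraries, against 82.9 and 87.5 CPM in Control siRNA libraries, so the groups spanned almost the same range (log2 fold change -0.02 ± 0.12, SE). SYF2 contacts these scaffolds in the catalytic spliceosome. Syf2 had 128 and 118 CPM in CPEB4 siRNA libraries, against 135 and 125 CPM in Control siRNA libraries, with overlap (log2 fold change -0.12 ± 0.11, SE).

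CRNKL1 is the other repeat scaffold, and its gene was barely covered. Crnkl1 had 10 and 8 counts in CPEB4 siRNA libraries, against 3 and 7 counts in Control siRNA libraries. The ratio of the summed rates was 1.57 (exact 95% interval 0.687 to 3.81, for counting error alone). That interval leaves out the spread between replicates and is a description. The fitted log2 fold change was -0.27 without Control siRNA replicate 1 and 1.65 without Control siRNA replicate 2, so no direction is given. Some other genes that every cell uses were near 0 in these uniquely mapped reads too, such as the chaperone Hspa8, a reported component of the complex, with 3 and 1 counts in CPEB4 siRNA libraries and 0 and 2 counts in Control siRNA libraries. The low Crnkl1 values are therefore not read as low expression.

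The genes of the proteins that link the complex to the catalytic centre also lacked a shift as large as that of Cdc5l. SNW1, also known as SKIP, stabilises the active site and acts as a transcription coregulator. Snw1 had 86.7 and 102 CPM in CPEB4 siRNA libraries, against 94.5 and 110 CPM in Control siRNA libraries, and the ranges overlapped (log2 fold change -0.14 ± 0.12, SE). PRPF8 is the large U5 protein that cradles the catalytic RNA. Prpf8 had 564 and 610 CPM in CPEB4 siRNA libraries, against 550 and 596 CPM in Control siRNA libraries, again with overlap (log2 fold change 0.0049 ± 0.10, SE).

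**Figure D2:**
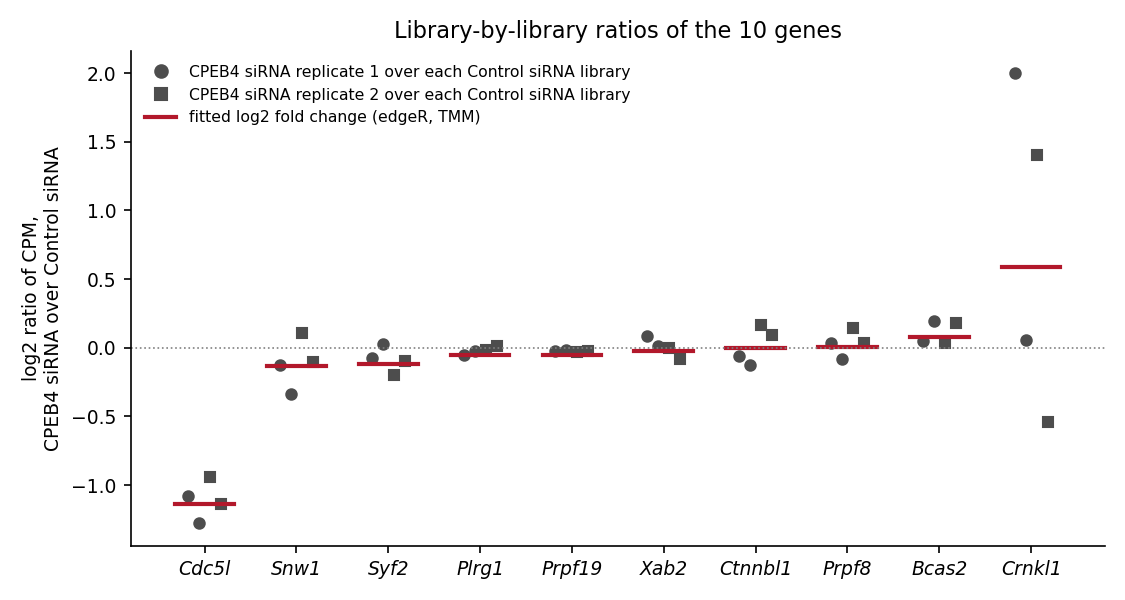
Log2 ratio of CPM of each CPEB4 siRNA library over each Control siRNA library (4 points per gene), with the fitted log2 fold change as a red line and genes ordered by it. The 4 Cdc5l points lie between -1.28 and -0.94, the Crnkl1 points scatter widely on few counts, and the points of the 8 genes between lie within -0.34 to 0.20.

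Over the group, the median log2 fold change was -0.04 for all 10 genes and -0.02 for the 9 without Cdc5l, beside -0.0031 for all genes tested. Leaving Cdc5l and Crnkl1 aside, the fitted values ran from -0.14 (Snw1) to 0.08 (Bcas2). Of the 10 genes, 1 (Cdc5l) had an edgeR adjusted p under 0.05, beside 3.41% of all genes (1.87% for lower calls alone). The CPM of the groups did not overlap for 3 of 10, beside 46% of all genes. These were Cdc5l and Prpf19, lower in CPEB4 siRNA cells as for 19.5% of all genes, and Bcas2, higher as for 26.5%. These counts describe genes proposed from the same contrast and nothing is read from them.

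The summed footprints of the 9 genes without Cdc5l were almost the same in every library, at 1353 and 1407 CPM in CPEB4 siRNA libraries, against 1354 and 1406 CPM in Control siRNA libraries. With Cdc5l added, the sums were 1450 and 1513 CPM in CPEB4 siRNA libraries, against 1559 and 1641 CPM in Control siRNA libraries. The groups were thus apart in the total with Cdc5l and not without it, as adding 1 gene with a large gap gives. Prpf8 (550 to 610 CPM) and Prpf19 (283 to 288 CPM) make up most of the sum without Cdc5l, so it says little about the other genes.

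Ratios of counts within a library need no scaling, and the length of a gene cancels when its ratio is compared across libraries. Cdc5l had 0.0717 and 0.0758 counts per count of the other 9 genes together in CPEB4 siRNA libraries, against 0.151 and 0.167 in Control siRNA libraries. Relative to Prpf19 it had 0.341 and 0.377 counts per count in CPEB4 siRNA libraries, against 0.712 and 0.819 in Control siRNA libraries. Relative to Prpf8 the ratios were 0.172 and 0.175 in CPEB4 siRNA libraries, against 0.372 and 0.394 in Control siRNA libraries. For 9 of 9 partners, both CPEB4 siRNA libraries had a lower ratio than both Control siRNA libraries, as one low numerator shared by all ratios gives.

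**Figure D3:**
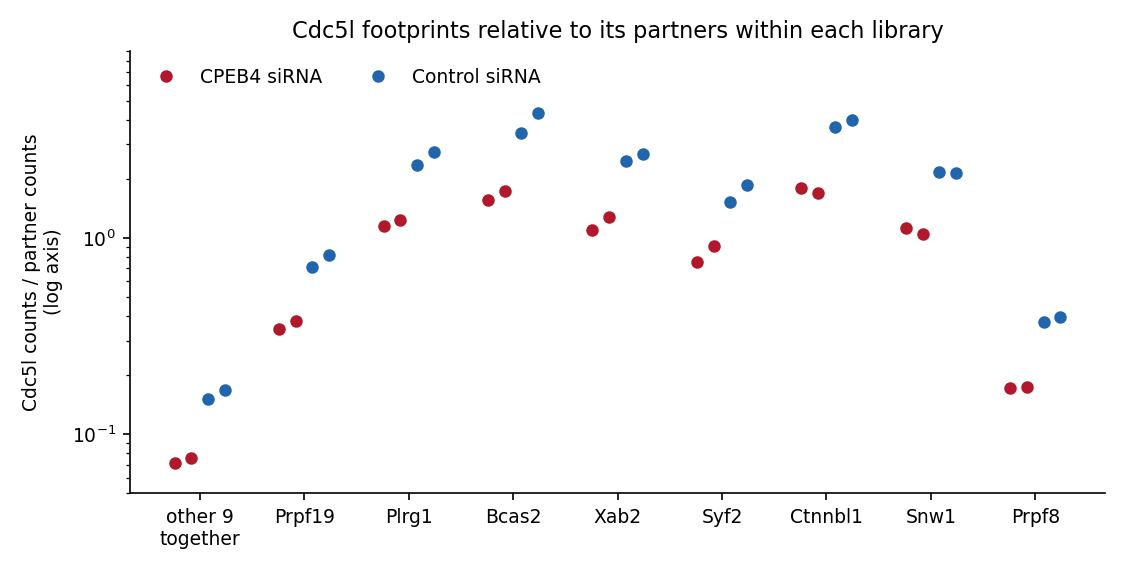
Counts of Cdc5l divided by counts of each partner within the same library (log axis, 1 point per library, CPEB4 siRNA left of Control siRNA), with Crnkl1 left out for its few counts. The CPEB4 siRNA points lie below the Control siRNA points for each partner shown, for example 0.341 and 0.377 against 0.712 and 0.819 for Prpf19.

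The rest of the spliceosome was set beside these genes through lists of its subcomplexes, with 114 genes outside the group of 10. Of these, 111 were found and 104 passed the filter on low counts. In edgeR 0 of the 104 rose and 0 fell, beside 1.54% and 1.87% of all genes tested, and the lowest adjusted p among them was 0.105. Their unadjusted p was under 0.05 for 12 (11.5%), beside 16.1% of all genes. DESeq2 and limma-voom also called 0 of the 104, with 1 and 12 at an unadjusted p under 0.05. The lowest log2 fold change among them was -0.44, beside -1.14 for Cdc5l, and their median was -0.05. The groups did not overlap for 44 of the 104 (42.3%), beside 46% of all genes. The lists were written with earlier results of these data known, so these counts are a description.

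Other factors that join with or around the Prp19 complex had a median log2 fold change of -0.09 over 13 genes tested, 9 of them negative. Zfp830, a zinc finger protein of the activated spliceosome, had the smallest p, with 22.9 and 26.2 CPM in CPEB4 siRNA libraries and 33.6 and 29.5 CPM in Control siRNA libraries (log2 fold change -0.40 ± 0.16, SE; edgeR adjusted p = 0.22). The peptidyl-prolyl isomerase Ppil3 had the most negative value (-0.44 ± 0.22, SE; named after its values were seen). Of 7 further proteins of the U5 small nuclear ribonucleoprotein (snRNP), 5 were negative with a median of -0.07, and Prpf6, which bridges U5 to U4/U6, had 108 and 104 CPM in CPEB4 siRNA libraries, against 123 and 122 CPM in Control siRNA libraries (edgeR adjusted p = 0.30). The direct partners of Prpf8 in the U5 particle, chosen after their values were seen, were the GTPase Eftud2, with 159 and 162 CPM in CPEB4 siRNA libraries and 168 and 159 CPM in Control siRNA libraries, and the helicase Snrnp200, with 393 and 440.0 CPM in CPEB4 siRNA libraries and 377 and 398 CPM in Control siRNA libraries.

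The other snRNP lists had median log2 fold changes near 0, with estimates on both sides of 0 among their members. The median was 0.02 for 20 U2 genes (range -0.33 to 0.34) and -0.09 for 7 U1 genes (-0.36 to 0.20). It was -0.05 for 14 U4/U6 and tri-snRNP genes (-0.33 to 0.35) and -0.07 for 7 Sm proteins (-0.42 to 0.06), which form the ring on the small nuclear RNAs. Sf3b5, a subunit of the SF3b branch site complex, had 180 and 162 CPM in CPEB4 siRNA libraries, against 207 and 212 CPM in Control siRNA libraries (log2 fold change -0.33 ± 0.11, SE; edgeR adjusted p = 0.105). The smallest p among the U4/U6 and tri-snRNP genes belonged to the U6-binding protein Lsm4 (-0.33 ± 0.13, SE; edgeR adjusted p = 0.19), and among the Sm proteins to Snrpd2 (-0.38 ± 0.18, SE; edgeR adjusted p = 0.30). At the positive end, named after their values were seen, were the U2 proteins Snrpa1 (0.34 ± 0.14, SE; edgeR adjusted p = 0.21) and Snrpb2 (0.31 ± 0.13; 0.21) and the U6-binding protein Lsm3 (0.35 ± 0.15; 0.23).

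Factors of the catalytic steps and spliceosome release had a median of 0.06 over 23 genes, 13 of them positive. Cwc22, which places the exon junction complex, had the smallest p among them, with 19.2 and 23.2 CPM in CPEB4 siRNA libraries and 15.2 and 15.2 CPM in Control siRNA libraries (log2 fold change 0.46 ± 0.20, SE; edgeR adjusted p = 0.25). The 13 genes of the exon junction complex, which marks spliced mRNAs, had a median of -0.04, and its subunit Casc3 had a log2 fold change of 0.28 ± 0.12 (SE; edgeR adjusted p = 0.22).

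Splicing regulators that are no part of the core machinery included 1 call. Of 19 hnRNP genes tested, 1 rose and 0 fell, beside 1.54% and 1.87% of all genes. The gene that rose was Ptbp2, a polypyrimidine tract binding repressor of exons, with 114 and 120.3 CPM in CPEB4 siRNA libraries and 58.8 and 70.9 CPM in Control siRNA libraries (log2 fold change 0.83 ± 0.12, SE; edgeR adjusted p = 0.000272). Of 19 SR proteins and their kinases, none passed in edgeR, 3 had an unadjusted p under 0.05 and 13 were negative, with a median of -0.09. DESeq2 and limma-voom called 0 of them as well. Srsf2 had the smallest p of these, with 142 and 140.1 CPM in CPEB4 siRNA libraries and 179 and 163 CPM in Control siRNA libraries (log2 fold change -0.31 ± 0.11, SE; edgeR adjusted p = 0.13).

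CDC5L and PRPF19 also have roles in the DNA damage response, where PRPF19 acts with the single-strand binding protein RPA and the kinase ATR. Of 18 genes of transcription-coupled repair, RPA and the ATR pathway that were tested, none passed in edgeR and 1 had an unadjusted p under 0.05. DESeq2 and limma-voom called 0 of the 18 too, and the median was 0.0050. That 1 gene was the checkpoint clamp loader Rad17, with 23.1 and 33.8 CPM in CPEB4 siRNA libraries and 18.6 and 23.4 CPM in Control siRNA libraries (log2 fold change 0.44 ± 0.20, SE; edgeR adjusted p = 0.26).

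**Figure D4:**
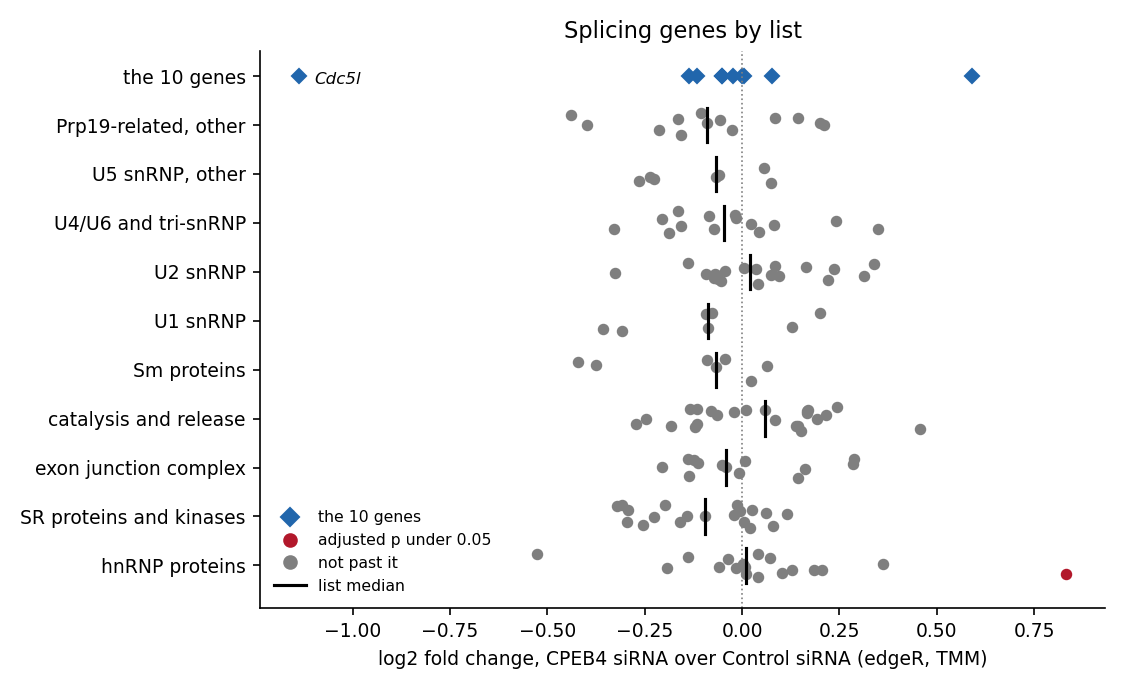
Log2 fold change (CPEB4 siRNA over Control siRNA, edgeR with TMM scaling) of the 10 genes (blue diamonds, top) and of each tested gene in 10 lists of splicing factors, with black bars at list medians and red points for an adjusted p under 0.05. Cdc5l lies at -1.14, left of all other points. The 10 genes are blue whatever their adjusted p, and the 1 red point in the lists is Ptbp2 at 0.83.

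The 5 genes with the pattern most like that of Cdc5l were found among 6779 genes with a mean of at least 20 CPM, by the Euclidean distance between centred log2 CPM values over the 4 libraries. They were Vps36, a subunit of the ESCRT-II sorting complex, the sodium bicarbonate cotransporter Slc4a4, Faf2, a factor of endoplasmic reticulum-associated degradation, Dazap2, and the transcriptional corepressor Nab1, at distances of 0.163 to 0.241. Vps36 had 22.5 and 24.0 CPM in CPEB4 siRNA libraries, against 48.9 and 48.4 CPM in Control siRNA libraries. Dazap2 had 62.2 and 60.7 CPM in CPEB4 siRNA libraries, against 143 and 159 CPM in Control siRNA libraries. Nab1 had the most negative log2 fold change of the 5, at -1.33. The search selects genes for a low value in CPEB4 siRNA libraries, so these values are a description.

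**Figure D5:**
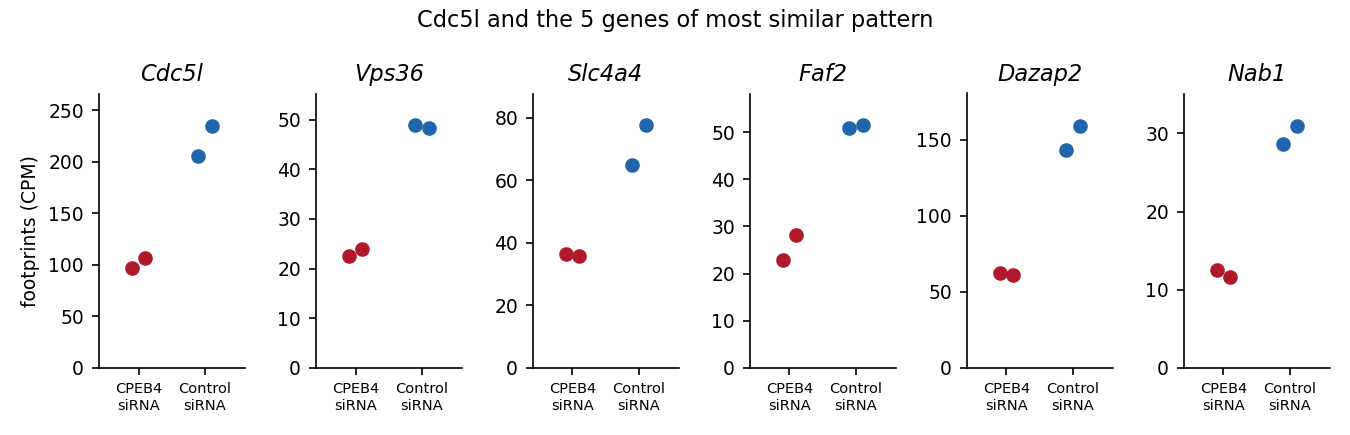
Footprint level (CPM, linear axes from 0) of Cdc5l and the 5 genes of most similar pattern, 1 point per library, CPEB4 siRNA left and Control siRNA right. In each panel both CPEB4 siRNA points lie below both Control siRNA points, as the selection requires.

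The 8 fibroblast markers summed to 12049 and 12143 CPM in CPEB4 siRNA libraries, against 17620 and 15974 CPM in Control siRNA libraries, with Col1a2 listed at 0 in all 4 libraries. Col1a1 and Fn1 make up most of these sums, which therefore say little about the other markers. Of 7 tested, 2 fell (28.6%, beside 1.87% of all genes tested), and 7 were negative, beside 50.5% of all genes tested. The CPEB4 siRNA libraries lay below both Control siRNA libraries for 4 of the 7, beside 19.5% of all genes tested, and the groups overlapped for Postn, Dcn and Lum. Fibronectin, Fn1, had 2358 and 2995 CPM in CPEB4 siRNA libraries, against 4559 and 3948 CPM in Control siRNA libraries (edgeR adjusted p = 0.000686). The collagen gene Col1a1 had 6072 and 5374 CPM in CPEB4 siRNA libraries, against 8586 and 7867 CPM in Control siRNA libraries (edgeR adjusted p = 0.00339). Col1a1 no longer passed in edgeR when CPEB4 siRNA replicate 2 (adjusted p = 0.094) or Control siRNA replicate 1 (adjusted p = 0.055) was left out. The part of fibroblast content in the Cdc5l difference was not tested.

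No call was made in edgeR among the markers of cardiomyocytes (8 tested, 1 with an unadjusted p under 0.05), endothelium (7 tested, 0 with an unadjusted p under 0.05), leukocytes (8 tested, 2) or smooth muscle and pericytes (6 tested, 0), and DESeq2 and limma-voom called 0 in each of these lists. Log2 fold changes were negative for 6 of the 8 cardiomyocyte markers (75%) and 6 of the 7 endothelial markers (85.7%), beside 50.5% of all genes tested. They were negative for 3 of the 8 leukocyte markers and 1 of the 6 smooth muscle and pericyte markers. The endothelial markers summed to 299 and 327 CPM in CPEB4 siRNA libraries, against 333 and 303 CPM in Control siRNA libraries. The leukocyte markers summed to 492 and 588 CPM in CPEB4 siRNA libraries, against 675 and 481 CPM in Control siRNA libraries. The smooth muscle and pericyte markers summed to 5824 and 6212 CPM in CPEB4 siRNA libraries, against 5520 and 5534 CPM in Control siRNA libraries. Eng makes up most of the endothelial sums, and Acta2 most of the smooth muscle and pericyte sums. The genes of smallest p in these lists were Myh7 (log2 fold change -0.24 ± 0.10, SE; edgeR adjusted p = 0.24), Cdh5 (-0.27 ± 0.14; 0.35), Lyz2 (-0.58 ± 0.21; 0.16) and Rgs5 (0.71 ± 0.37; 0.35). The values of 3 of these genes moved by over 1.5 times with 1 library left out. Lyz2 had a log2 fold change of -1.20 without CPEB4 siRNA replicate 2 (edgeR adjusted p = 0.0060) and -0.16 without CPEB4 siRNA replicate 1 (0.69). It had -0.86 without Control siRNA replicate 2 (edgeR adjusted p = 0.000178) and -0.18 without Control siRNA replicate 1 (0.83). Lyz2 also passed in edgeR without the low-count filter (adjusted p = 0.000203). Rgs5 had a log2 fold change of 1.76 without Control siRNA replicate 1 and 0.28 without Control siRNA replicate 2, and Cdh5 had -0.04 and -0.43 without the same libraries, with no call.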

How the data were processed

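The authors deposited unnormalised counts of reads for each Ensembl gene, with gene symbols. Per the submitters' processing notes, Bowtie2, STAR 2.7, HTSeq 0.12 and Rnor_6.0 were used. The roles of these tools and the strand setting are not given in the sources used here, so overlapping and antisense genes are uncertain. Per the file names, reads were uniquely mapped and of 29 to 34 nt (29 to 33 nt in CPEB4 siRNA replicate 2). Genes with near-identical copies lose reads under unique mapping. The 5 HTSeq summary rows were left out. Reads without a feature made up 4.42% to 4.63% of each library.

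Levels are CPM over the library total. The test was edgeR 4.0.16 in R 4.3.3 (quasi-likelihood F-test, TMM, filterByExpr with a minimum count of 10, group as the only term, two-sided, Benjamini-Hochberg over 11335 genes, threshold 0.05). SE were derived from the F statistic. The biological coefficient of variation was 8.77%. The workflow was tested on simulated counts with the same variation set for every gene. There edgeR called 42.9% of changes of 1.5 times and 84% of changes of 2 times, and 12 of its 172 calls were false. A gene without a call may therefore still differ by a small amount. Alternatives were RLE, upper-quartile and library total scaling, other filters, DESeq2 1.42.0, limma-voom (limma 3.58.1), a threshold of 0.10, leaving out each library, and a replicate block.

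The 10 genes and all lists were chosen with earlier results of these data known. Named genes were the 10 genes, Cpeb4, up to 4 called genes per list or its gene of smallest p, and the 5 genes nearest to Cdc5l in pattern. List symbols were matched to the files or through RefSeq synonyms (GRCr8). A planned footprint density per codon was not computed, since no coding length was used here, and levels of different genes are not compared. One single-gene result is not reported here.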

Additional observations from a re-analysis of the deposited data

How the results depend on the processing

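The log2 fold change of Cdc5l kept its sign and stayed within its replicate spread under all 13 alternatives. It ran from -1.25 without Control siRNA replicate 1 to -1.03 without Control siRNA replicate 2. Fits without 1 library shift a value by a part of that group's own replicate gap. For groups that do not overlap, such fits could therefore hardly change the sign or leave the replicate spread. The count of 0 called spliceosome genes outside the group of 10 held under every alternative run, with a lowest adjusted p of 0.060 without CPEB4 siRNA replicate 1. Of the other 9 genes, Ctnnbl1, Xab2, Prpf8 and Crnkl1 changed sign under at least 1 alternative, so no direction is given for them. The count of 386 genes (174 higher, 212 lower) was 629 (274 and 355) at a threshold of 0.10, 606 (352 lower) without the low-count filter and 192 (77 and 115) in DESeq2. With 1 library left out it lay between 212 and 324 (79 to 138 higher, 133 to 186 lower), where the lone library is assumed to vary like the other group. A looser threshold can only add calls, and the cause of the other differences was not tested. Replicate 1 minus replicate 2 differences correlated at -0.11 across genes between the groups, so the numbers were not taken to pair the libraries. With the replicate block 400 genes were called, and with the pairing crossed, chosen after seeing the data, 479, among them 2 of the 4 genes that the report names from the marker lists without a call. Depth limits Crnkl1 most, with 28 counts in all.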

Other observations

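Several abundant splicing genes were listed at or near 0 in all 4 libraries and did not pass the low-count filter. Hnrnpa1 had 0 and 0 counts in CPEB4 siRNA libraries and 1 and 0 counts in Control siRNA libraries. Hnrnpab, Hnrnpc, Hnrnph3 and Snu13 had 0 counts in each library. The U1 protein Snrpc had 1 and 1 counts in CPEB4 siRNA libraries and 1 and 2 counts in Control siRNA libraries, and the Sm protein Snrpg had 1 and 0 counts in CPEB4 siRNA libraries and 0 and 0 counts in Control siRNA libraries. The list counts above leave these genes out.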
